A study of Mus musculus with 12 samples.

Results

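The 10 genes described here encode insulin-like growth factor 1 (Igf1), its receptor (Igf1r), the acid-labile subunit (Igfals) and the IGF binding proteins 1 to 7 (Igfbp1 to Igfbp7). They were taken by symbol from a table of 55357 genes counted in mouse liver, with earlier results of these data known. All 10 were found and passed the filter on low counts. Livers came from male C57BL/6J mice with a hepatocyte-specific PPARα KO (PPARa fl/fl AlbuminCre Tg/+) and from WT mice (PPARa fl/fl AlbuminCre +/+), which were 7 weeks old at the start and 13 weeks old at the end of 6 weeks on chow or on CDAHFD, a choline-deficient, L-amino acid defined diet rich in fat. The 12 libraries were 4 of WT chow, 3 of WT CDAHFD, 2 of KO chow and 3 of KO CDAHFD by their labels, whereas the methods of the study name 3 mice in each group. All mice carried the floxed Ppara alleles, and Albumin-Cre limits the deletion to hepatocytes, so that other liver cells of KO mice keep the gene.

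IGF1 in blood comes mainly from hepatocytes, which release it under the control of growth hormone through the growth hormone receptor, JAK2 and STAT5B. Most circulating IGF1 travels in a complex with a binding protein, IGFBP3 or IGFBP5, and the acid-labile subunit, which hepatocytes make too, while IGFBP1, IGFBP2 and IGFBP4 form smaller complexes that can leave the vessels. IGFBP7 binds IGFs weakly and is made by endothelial and mesenchymal cells. The comparisons ask how loss of PPARα in hepatocytes, CDAHFD and both together changed the transcripts of this axis. Below, "the KO alone" stands for KO chow, "CDAHFD alone" for WT CDAHFD and "both" for KO CDAHFD, each against WT chow.

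Promoter sequence is shown for 2 of the genes, Igfals, which like Igf1 and Igfbp4 fell in every comparison with WT chow, and Igfbp1, which varied most within WT chow. They are the 250 bases before a RefSeq start of each gene on GRCm38.p6, both on the plus strand, for Igfals at chr17:24877981-24878230 and for Igfbp1 at chr11:7197537-7197786. In Igfals, the capitals mark from left to right a FOXO motif (GTAAACA, here on the other strand), a STAT5 motif (TTCNNNGAA) and the single repeat of a PPAR element (AGGTCA, on the other strand). In Igfbp1, the capitals mark the core of an insulin response element (CAAAACA).
Igfals: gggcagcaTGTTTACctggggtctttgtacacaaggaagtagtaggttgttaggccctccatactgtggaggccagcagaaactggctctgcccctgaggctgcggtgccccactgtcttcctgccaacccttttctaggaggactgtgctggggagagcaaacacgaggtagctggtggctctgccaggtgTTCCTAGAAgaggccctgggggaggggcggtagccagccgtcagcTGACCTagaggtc
Igfbp1: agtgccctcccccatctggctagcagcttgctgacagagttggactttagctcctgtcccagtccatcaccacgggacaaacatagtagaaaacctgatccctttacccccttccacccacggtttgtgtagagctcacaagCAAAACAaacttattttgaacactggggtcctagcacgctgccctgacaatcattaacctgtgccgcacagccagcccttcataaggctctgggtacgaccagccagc
The STAT5 motif lay 58 to 50 bases before the Igfals start, and the insulin response core lay 108 to 102 bases before the Igfbp1 start. Searched on both strands of 32851 such windows, the STAT5 motif was in 7.02%, the FOXO motif in 3.17%, the insulin response core in 5.56% and the single repeat in 14% of them. Of the 13 windows of the 10 genes, 2 held the STAT5 motif, both of Igfals, and 3 held the single repeat, of Igf1, Igf1r and Igfals. The Igfals window shown held the most of these motifs among the windows of that gene. Its window at chr17:24877594-24877843 held only the STAT5 motif, and that at chr17:24878497-24878746 held none of them. The direct repeat that PPARα binds with RXR (AGGTCANAGGTCA, which contains the single repeat) was in 0.0335% of all windows and in 0 of these 13. A match of letters is a description of the window and not a binding site.

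Total counts ran from 29906785 to 43551003 per library. Levels are given as CPM, the count scaled to the library total, with TMM library sizes, and as CPM per kilobase of exon (RPKM) where genes are compared with each other. Log2 fold changes are given ± SE, and a gene was called where the adjusted p of edgeR's quasi-likelihood test, over the 17358 genes tested, was under 0.05. Ppara, the targeted gene, had 96.2 to 238 CPM in WT chow, 59.5 to 75.5 in WT mice on CDAHFD, 14.4 and 38.7 in KO mice on chow and 20.7 to 51.9 in KO CDAHFD. Its libraries were lower in KO than in WT on each diet, with a log2 fold change of -2.68 ± 0.50 on chow (adjusted p = 0.00111) and -0.94 ± 0.42 on CDAHFD (adjusted p = 0.547), and it was also lower in WT CDAHFD than in WT chow (-1.29 ± 0.40, adjusted p = 0.0163). The libraries also differed in genes of the circadian clock: a score of 14 clock genes was below 0 in WT chow 3 and 4, KO chow 2 and KO CDAHFD 3 and above 0 in the other 8. Ppara was at 120.1 and 96.2 CPM in WT chow 1 and 2 and at 238 and 226 in WT chow 3 and 4. In each KO group, too, the library with a score below 0 had the most Ppara. All WT CDAHFD libraries had scores above 0, and the part of the clock in the differences of Ppara was not tested.

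**Figure D1:**
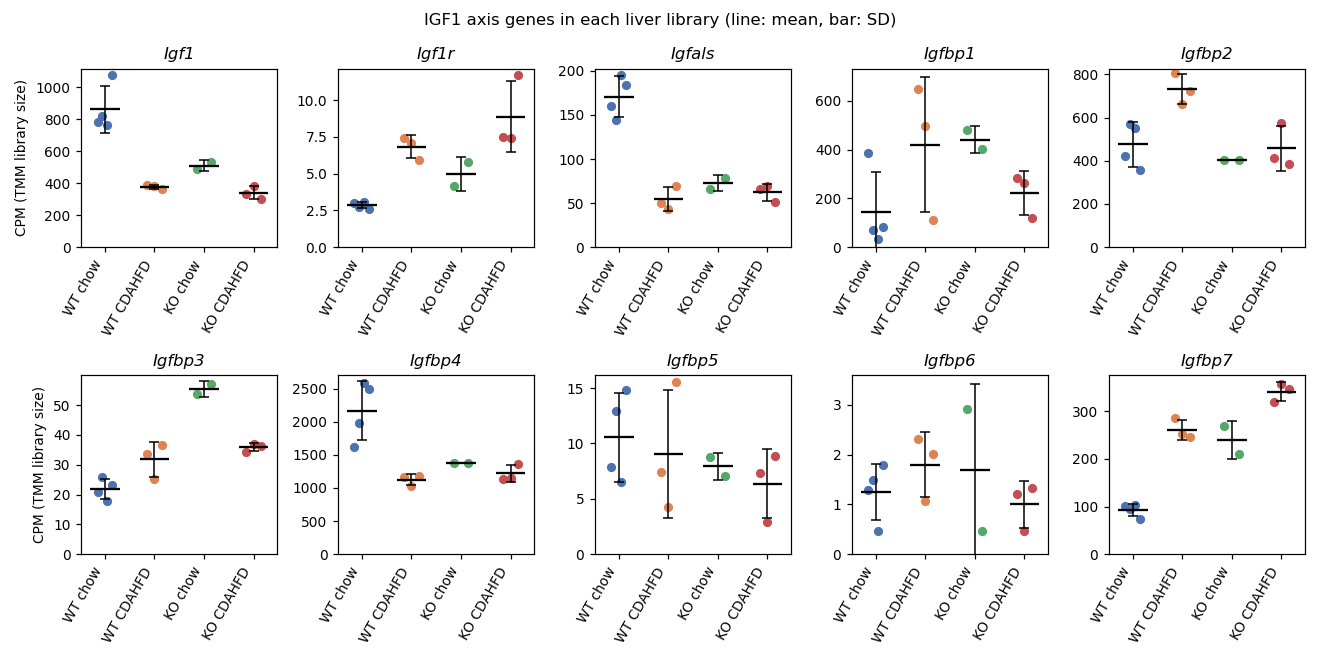
CPM of the 10 genes in each library (points) of the 4 groups, with the mean (line) and SD (bar, ending at the axis where it would pass 0). Igf1, Igfals and Igfbp4 were highest in the 4 WT chow libraries, Igf1r and Igfbp7 were lowest there, and Igfbp1 spread widely within WT chow and WT CDAHFD.

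Against WT chow, 6 of the 10 genes were called in the same direction in all 3 other groups: Igf1, Igfals and Igfbp4 fell, and Igf1r, Igfbp3 and Igfbp7 rose. KO chow had 6 of the 10 genes called, 3 higher and 3 lower, beside 39% of all genes tested (22% higher, 17% lower). WT CDAHFD had 7 called, 4 higher and 3 lower, beside 51.1% (26.1% higher, 25% lower), the added gene being Igfbp2. KO CDAHFD had 6 called, 3 higher and 3 lower, beside 52.4% (26.9% higher, 25.4% lower). The median log2 fold change of the 10 genes was 0.10, 0.53 and -0.18, beside 0.002, -0.05 and -0.04 over all genes. With 6 of 10 beside 52.4%, the count in KO CDAHFD was near the share of all genes. The 3 comparisons share the WT chow libraries and are not independent, and the share of all genes called alike in all 3 was not counted. With library size alone in place of TMM the median of all genes moved up by 0.40, 0.51 and 0.57 on the log2 scale in these comparisons, and the calls became 3 higher and 2 lower, 5 higher and 3 lower, and 4 higher and 2 lower.

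**Figure D2:**
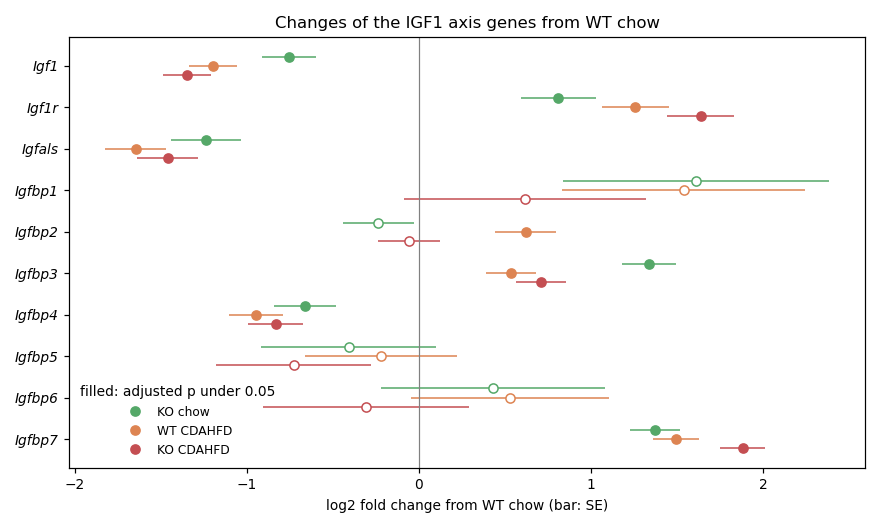
Log2 fold change from WT chow of each of the 10 genes with the KO alone, CDAHFD alone and both (bar: SE, filled: adjusted p under 0.05). Filled points lie left of 0 for Igf1, Igfals and Igfbp4 and right of 0 for Igf1r, Igfbp3 and Igfbp7 in all 3 groups.

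Igf1 (chromosome 10, 87858265 to 87937042, plus strand, GRCm38), the ligand, had 783, 820.4, 766 and 1077 CPM in WT chow. WT CDAHFD had 386, 380.1 and 362, KO chow 486 and 534, and KO CDAHFD 333, 383 and 301. No library of the other groups reached the lowest of WT chow, and the libraries of KO chow lay between those of WT chow and of both CDAHFD groups. Igf1 fell to 0.592 times its WT chow level with the KO alone (-0.76 ± 0.16, adjusted p = 0.00213), to 0.436 times with CDAHFD alone (-1.20 ± 0.14, adjusted p = 1.38e-05) and to 0.394 times with both (-1.34 ± 0.14, adjusted p = 4.89e-06). These calls held without any single library and under each other processing.

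Igfals (chromosome 17, 24865997 to 24882010, plus strand), the acid-labile subunit that stabilises the circulating complex, had 160.1, 144, 195 and 184 CPM in WT chow. The other groups held 50.3, 43.8 and 69.9 (WT CDAHFD), 66.2 and 78.8 (KO chow) and 65.4, 69.1 and 51.7 (KO CDAHFD). The 8 libraries outside WT chow overlapped each other, and the highest of them was well below the lowest of WT chow. The level fell to 0.424 times with the KO alone (-1.24 ± 0.20, adjusted p = 0.000392), 0.32 times with CDAHFD alone (-1.64 ± 0.18, adjusted p = 7.7e-06) and 0.363 times with both (-1.46 ± 0.18, adjusted p = 1.82e-05).

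Bulk liver RNA cannot tell fewer hepatocytes from less RNA in each of them, and hepatocyte markers moved along with Igf1 and Igfals. Of 7 hepatocyte markers measured, such as Apoa1 and Ttr, 6 fell in KO chow and 7 in each CDAHFD group. Their summed level was 79030 to 97020 CPM in WT chow, 40860 to 50750 in WT mice on CDAHFD, 69250 and 77340 in KO mice on chow and 38810 to 54220 in KO CDAHFD, and none of these markers was at 0. Most of this sum was Alb, with means of 68660, 37800, 59630 and 35710 CPM in the same order of groups. Levels per 1000 CPM of these markers, here and below, therefore depend mainly on Alb. The median log2 fold change of the 7 markers was -0.691 with the KO alone, -1.295 with CDAHFD alone and -0.972 with both. Per 1000 CPM of these markers, Igf1 was 9.51 ± 1.68 (SD, n = 4) in WT chow, 8.02 ± 1.14 (n = 3) in WT mice on CDAHFD, 6.96 ± 0.0743 (n = 2) in KO mice on chow and 7.37 ± 0.356 (n = 3) in KO CDAHFD. Igfals on the same scale was 1.88 ± 0.267 in WT chow and 1.15 ± 0.204, 0.987 ± 0.045 and 1.35 ± 0.0799 in the same order of groups, whose libraries all stayed below those of WT chow. The smallest p of the exact two-sided permutation test is 0.0571 with 4 against 3 libraries and 0.133 with 4 against 2, so it could not reach 0.05, and Igfals had that smallest p in each group (0.14 and 0.18 adjusted over 27 ratio tests), while the WT CDAHFD libraries overlapped WT chow for Igf1 (exact p = 0.229). The part of the markers in these results was not tested.

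Igf1r (chromosome 7, 67952827 to 68233668, plus strand), the tyrosine kinase receptor of IGF1, is scarce in hepatocytes and had 2.99, 2.74, 3.07 and 2.61 CPM in WT chow. It had 7.46, 7.07 and 5.94 in WT mice on CDAHFD, 4.19 and 5.82 in KO mice on chow and 7.49, 7.46 and 11.7 in KO CDAHFD. All 8 libraries of the other groups were above WT chow. The summed levels of macrophage and myofibroblast markers, given below, also rose in these groups, while those of endothelial markers did not. Their part in the rise of Igf1r was not tested, nor was a link to the fall of Igf1. The rise was 1.75-fold with the KO alone (0.81 ± 0.22, adjusted p = 0.0106), 2.39-fold with CDAHFD alone (1.26 ± 0.19, adjusted p = 0.00016) and 3.11-fold with both (1.64 ± 0.19, adjusted p = 1.65e-05). The KO chow call was lost without KO chow 2 (0.56) and without the 4 libraries of low clock score (0.55). Both fits leave KO chow 1 alone in its group. With the clock score as a covariate the call held.

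Igfbp3 (chromosome 11, 7206086 to 7213923, minus strand), the main carrier of circulating IGF1, made in liver mostly by non-parenchymal cells, had 20.85, 25.9, 17.8 and 23.1 CPM in WT chow. KO chow had 53.6 and 57.2, the highest of any library, WT CDAHFD 33.7, 25.05 and 36.6, and KO CDAHFD 34.3, 37.0 and 36.2. It rose 2.53-fold with the KO alone (1.34 ± 0.16, adjusted p = 2.94e-05), 1.63-fold with both (0.71 ± 0.14, adjusted p = 0.00113) and 1.45-fold with CDAHFD alone (0.54 ± 0.14, adjusted p = 0.00751). In WT CDAHFD 1 library lay within the range of WT chow. The WT CDAHFD call was lost without the 4 libraries of low clock score (0.44). That fit keeps WT chow 1 and 2 as the reference. The call held with the clock score as a covariate.

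Within a library, the ratio of RPKM of Igf1 to Igfbp3 was 12.6 ± 2.07 in WT chow, 3.85 ± 0.856 in WT mice on CDAHFD, 2.91 ± 0.0622 in KO mice on chow and 2.99 ± 0.329 in KO CDAHFD (SD, n = 4, 3, 2 and 3). That of Igfals to Igfbp3 was 7.94 ± 2.18 in WT chow and 1.7 ± 0.208, 1.29 ± 0.1 and 1.71 ± 0.263 in the same order. For both ratios, the lowest WT chow library was above every other library. Each comparison with WT chow had the smallest p the exact permutation test allows, 0.0571 or, for KO chow, 0.133 (0.14 and 0.18 adjusted over 27 ratio tests). The ratios join genes already reported to move in opposite directions. Their separation therefore repeats those changes and is no separate evidence.

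**Figure D3:**
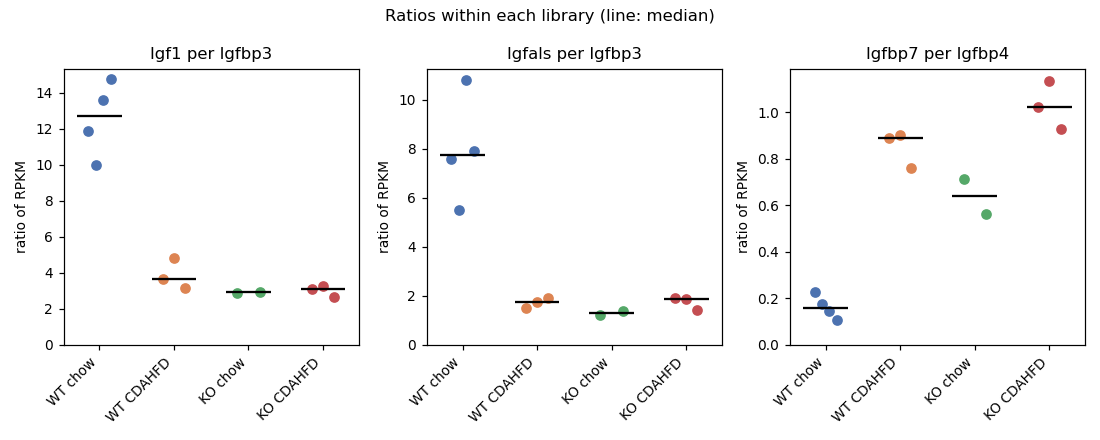
Ratio of RPKM within each library (points; line: median) for Igf1 to Igfbp3, Igfals to Igfbp3 and Igfbp7 to Igfbp4. In each panel the 4 WT chow libraries lie apart from the other 8, above them for the ratios to Igfbp3 and below them for Igfbp7 to Igfbp4. Each ratio joins genes that moved in opposite directions, so the separation repeats the changes of the single genes.

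Igfbp4 (chromosome 11, 99041244 to 99054392, plus strand), an inhibitor of IGF action that proteases such as PAPP-A cleave, had the highest level per length of the 10 genes in WT chow. Its CPM was 1626, 1976, 2585 and 2496 in WT chow, 1169, 1027 and 1182 in WT mice on CDAHFD, 1375 and 1372 in KO mice on chow and 1142, 1149 and 1367 in KO CDAHFD. All other libraries were below WT chow, with folds of 0.633 with the KO alone (-0.66 ± 0.18, adjusted p = 0.0118), 0.519 with CDAHFD alone (-0.95 ± 0.16, adjusted p = 0.000314) and 0.562 with both (-0.83 ± 0.16, adjusted p = 0.000752). The KO chow call was lost without KO chow 1 (-0.64), without KO chow 2 (-0.66) and without the 4 libraries of low clock score (-0.39). Each of these fits leaves 1 KO chow library. With the clock score as a covariate the call held. With library size alone the fall was -0.25 in KO chow (adjusted p = 0.228) and -0.21 with both (0.219), neither of them called. Per 1000 CPM of hepatocyte markers, Igfbp4 was 23.7 ± 3.76 in WT chow and 23.8 ± 1.14, 18.8 ± 1.49 and 27.1 ± 7.25 in the groups WT CDAHFD, KO chow and KO CDAHFD, and both CDAHFD groups overlapped WT chow.

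Igfbp7 (chromosome 5, 77349240 to 77408041, minus strand) moved the other way, with 101, 93.8, 103 and 73.5 CPM in WT chow. It had 285, 253 and 246 in WT mice on CDAHFD, 269 and 211 in KO mice on chow and 320.3, 358 and 348 in KO CDAHFD, all above WT chow. The rise was 2.59-fold with the KO alone (1.37 ± 0.14, adjusted p = 1.21e-05), 2.82-fold with CDAHFD alone (1.49 ± 0.13, adjusted p = 1.4e-06) and 3.68-fold with both (1.88 ± 0.13, adjusted p = 2.16e-07). Its exons share 85 of 1209 bases with Polr2b on the other strand, a gene with 20.3% as many counts, and the libraries do not keep strand. Markers of cells other than hepatocytes moved as well, some lists up and others down. Of 10 myofibroblast markers 8, 8 and 9 were called higher with the KO alone, CDAHFD alone and both and none lower. Their sum was 57.1 to 181 CPM in WT chow, 877 and 1063 in KO mice on chow, 1122 to 1211 in WT mice on CDAHFD and 1261 to 1924 in KO CDAHFD. Of 12 endothelial markers 1 was higher in each group, and 0, 7 and 6 were lower, with sums of 427 to 594 CPM in WT chow, 382 and 531 in KO mice on chow, 291 to 405 in WT mice on CDAHFD and 304 to 500.4 in KO CDAHFD. Of 12 stellate cell markers 7, 6 and 8 were higher and 0, 3 and 3 lower, and their sum had its highest median in KO chow, where Igfbp3 was highest too, with 512.8 and 599 CPM there, 473 to 522 with CDAHFD alone, 487 to 502 with both and 314 to 426 in WT chow. Kupffer cell markers, of which 3, 1 and 1 of 8 were higher and 2, 3 and 3 lower, summed to 1050 and 1179 CPM in KO chow, 417 to 842 in the CDAHFD groups and 688 to 1174 in WT chow. None of these 4 lists was at 0, and their part in the rise of Igfbp7 and Igfbp3 was not tested.

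Igfbp2 (chromosome 1, 72824503 to 72852474, plus strand), a hepatocyte product, was called higher with CDAHFD alone and not called with the KO alone or both. Its CPM was 420, 572, 554 and 356 in WT chow, 804.5, 664.5 and 725 in WT mice on CDAHFD, 405 and 403 in KO mice on chow and 412, 576 and 385.5 in KO CDAHFD. The 3 WT CDAHFD libraries were above all 9 others, 1.54-fold over WT chow (0.62 ± 0.18, adjusted p = 0.0113, or 0.0501 without WT CDAHFD 1). In KO CDAHFD the log2 fold change from WT chow was -0.06 ± 0.18 (adjusted p = 0.817), which with library size alone became 0.54 (adjusted p = 0.015). The interaction of genotype and diet did not pass the test (-0.44 ± 0.28, adjusted p = 0.292) with TMM, and it was called with library size alone (-0.80, adjusted p = 0.0411), so whether the response of Igfbp2 to CDAHFD differed between genotypes depended on the scaling. Per 1000 CPM of hepatocyte markers it was 5.21 ± 0.928 in WT chow, 15.5 ± 1.04 in WT mice on CDAHFD, 5.53 ± 0.457 in KO mice on chow and 9.85 ± 0.805 in KO CDAHFD.

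Igfbp1 (chromosome 11, 7197782 to 7202546, plus strand), which fasting induces and insulin represses in hepatocytes, varied most of the 10 genes, relative to its mean, within WT chow and WT CDAHFD. WT chow had 386, 72.2, 35.55 and 84.2 CPM, WT CDAHFD 649, 499 and 112, KO chow 480.4 and 402, and KO CDAHFD 282, 263 and 119.9. One WT chow library was in the range of the other groups, and no comparison with WT chow was called: 1.61 ± 0.77 in KO chow (adjusted p = 0.118), 1.54 ± 0.71 with CDAHFD alone (0.0865) and 0.62 ± 0.70 with both (0.487). Without WT chow 1 all 3 were called higher, by 2.80 (adjusted p = 0.00245), 2.74 (0.00142) and 1.82 (0.0131), and without WT CDAHFD 3 the second was (1.99, adjusted p = 0.0341). With every gene with a count tested, the first 2 were called (adjusted p = 0.00763 and 0.00357), as they were with the clock score as a covariate (0.0399 and 0.0402), and with library size alone the second was (2.05, adjusted p = 0.0285). Without the 4 libraries of low clock score, which leaves KO chow 1 alone in its group, the 3 were 1.07, 0.88 and 0.25, none called.

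Igfbp5 (chromosome 1, 72857932 to 72874884, minus strand) and Igfbp6 (chromosome 15, 102144362 to 102149511, plus strand), which prefers IGF2, were low throughout. Igfbp5 had 7.84, 12.97, 6.54 and 14.9 CPM in WT chow, 7.38, 4.29 and 15.5 in WT mice on CDAHFD, 8.81 and 7.06 in KO mice on chow and 7.30, 2.89 and 8.87 in KO CDAHFD. Igfbp6 ran from 0.467 to 1.79 CPM in WT chow and from 0.455 to 2.91 in the other groups. The groups overlapped for both genes, and neither was called in any comparison.

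Per length, the order in WT chow was Igfbp4 (492 ± 102 RPKM, SD, n = 4), Igfbp2 (257 ± 56.7), Igfbp1 (94.8 ± 106), Igf1 (87.0 ± 14.7), Igfbp7 (76.8 ± 11.2), Igfals (53.9 ± 7.28), Igfbp3 (7.002 ± 1.09), Igfbp5 (1.76 ± 0.665), Igfbp6 (1.13 ± 0.508) and Igf1r (0.170 ± 0.0126). The gaps between Igfbp1 and Igf1, Igf1 and Igfbp7, and Igfbp5 and Igfbp6 were smaller than the SD. In KO CDAHFD (n = 3) the order began with Igfbp7 (283 ± 16.0), Igfbp4 (276 ± 28.9) and Igfbp2 (248 ± 55.8), which lay within an SD of each other. Igfbp4 made up 52.9% ± 10.8 of the summed RPKM of the 7 Igfbp genes in WT chow, and 22.6% ± 4.81, 30% ± 2.06 and 28.8% ± 5.03 in the groups WT CDAHFD, KO chow and KO CDAHFD. The share of Igfbp7 went from 8.23% ± 0.926 to 19% ± 2.14, 19.1% ± 1.92 and 29.4% ± 2.27. The sum itself was 931 ± 53.0 RPKM in WT chow, 1156 ± 212 in WT mice on CDAHFD, 1038 ± 72.4 in KO mice on chow and 966 ± 79.3 in KO CDAHFD.

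**Figure D4:**
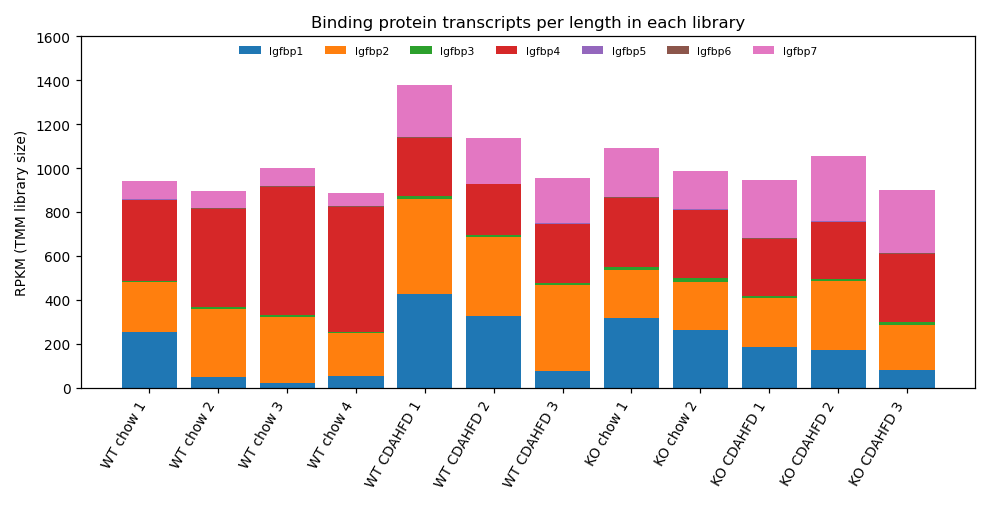
RPKM of the 7 Igfbp genes stacked for each library. Igfbp4 is 39.1% to 63.8% of the bar in WT chow and at most 34.4% elsewhere, and Igfbp7 is 28% to 32% in KO CDAHFD and at most 21.3% elsewhere.

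The effect of the KO depended on the diet for some of the genes. The interaction, the log2 fold change of KO against WT on CDAHFD minus that on chow, was called for 4 of the 10, 2 higher and 2 lower, beside 23.1% of all genes (8.63% higher, 14.5% lower). Igfals fell with the KO on chow (-1.24) and was 0.18 ± 0.18 on CDAHFD, an interaction of 1.42 ± 0.27 (adjusted p = 0.00209). Igfbp3 rose on chow (1.34) and was 0.17 ± 0.15 on CDAHFD, an interaction of -1.17 ± 0.22 (adjusted p = 0.00219). Igfbp7 went from 1.37 on chow to 0.39 ± 0.14 on CDAHFD, an interaction of -0.98 ± 0.20 (adjusted p = 0.00386). These 3 held without any single library and under each other processing. Igfbp4 had an interaction of 0.78 ± 0.24 (adjusted p = 0.0372). It stayed called with DESeq2, DESeq2 size factors, every gene with a count and the clock score as a covariate. Among fits without single libraries it stayed called only without WT chow 1 or WT chow 2. Without WT chow 3 or 4 or any CDAHFD library the adjusted p was 0.0507 to 0.092. Without KO chow 1 or KO chow 2, which leaves 1 KO chow library, the interaction of Igfbp4 was 0.77. It was 0.42 with library size alone (adjusted p = 0.18). Without the 4 libraries of low clock score, which leaves KO chow 1 alone in its group, it was 0.41. The interaction of Igf1, 0.61 ± 0.21, missed the threshold (adjusted p = 0.054). It was called with DESeq2 (0.0247) and without WT chow 1 (0.0303), WT chow 3 (0.0334) or KO CDAHFD 3 (0.0355). Without the 4 libraries of low clock score the interaction of Igf1 was 0.65. That of Igfbp1, -2.53 ± 1.09 (adjusted p = 0.118), was called without WT chow 1 (-3.72, adjusted p = 0.00411) and with every gene with a count tested (-2.58, adjusted p = 0.00493). With library size alone the median of all interactions moved by -0.34, and the calls became 1 higher and 3 lower.

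**Figure D5:**
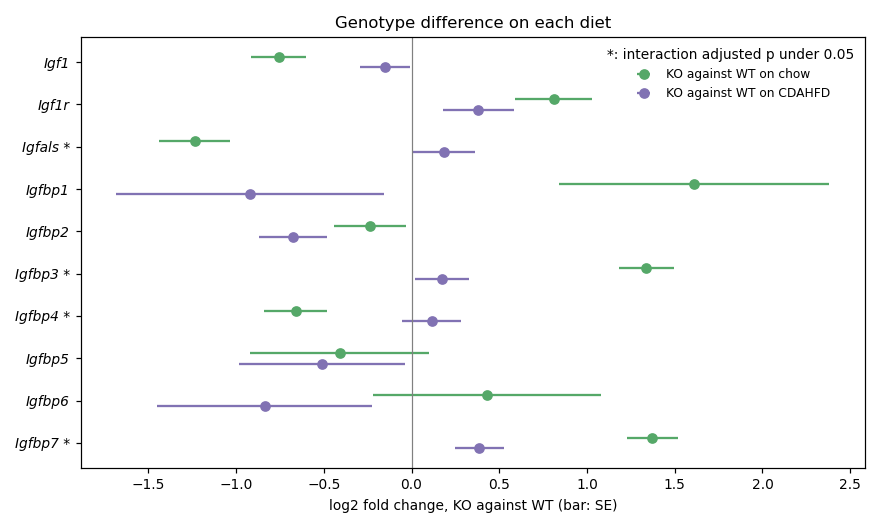
Log2 fold change of KO against WT for each gene on chow and on CDAHFD (bar: SE), with a star where the interaction had an adjusted p under 0.05. The points on CDAHFD lie closer to 0 than those on chow for the 4 starred genes Igfals, Igfbp3, Igfbp4 and Igfbp7.

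On CDAHFD itself, KO and WT were called different for 0 of the 10 genes with edgeR, beside 0.357% of all genes (0.0864% higher, 0.271% lower), and for 0 with DESeq2, while Igfbp2 was called when every gene with a count was tested (-0.68, adjusted p = 0.0311). At an unadjusted p under 0.05 there were 2 of the 10 genes, beside 1523 of the 17358 genes tested. These 2 were Igfbp2 (-0.68 ± 0.19, adjusted p = 0.258) and Igfbp7 (0.39 ± 0.14, adjusted p = 0.427). For both genes the 3 KO CDAHFD libraries did not overlap the 3 of WT CDAHFD. The same held for Igf1r (0.38 ± 0.20, adjusted p = 0.642). The share of all genes without overlap was not counted.

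Within KO mice, the comparison of KO CDAHFD with KO chow asks what the diet added to the KO. It gave 2 called genes, both lower, beside 6.19% of all genes (3.76% higher, 2.44% lower): Igf1 (-0.59 ± 0.16, adjusted p = 0.0462) and Igfbp3 (-0.63 ± 0.17, adjusted p = 0.0462). Neither call was firm, since the adjusted p ran from 0.0182 to 0.17 for Igf1 and from 0.0359 to 0.175 for Igfbp3 when single libraries were left out. Igf1 was lost without any 1 of the 3 WT CDAHFD libraries, KO chow 1 or 2, or KO CDAHFD 1 or 3, and Igfbp3 without WT chow 1 or 4, WT CDAHFD 1 or 3, KO chow 1 or 2, or any KO CDAHFD library. With library size alone the calls were 2 higher and 0 lower, Igf1r (1.05, adjusted p = 0.03) and Igfbp7 (0.72, adjusted p = 0.0307), while Igf1 was -0.39 and Igfbp3 -0.42, as the median of all genes moved by 0.20. Without WT chow 4 Igfbp7 was called (0.53, adjusted p = 0.0377).

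Set directly against each other, KO chow and WT CDAHFD differed in 2 of the 10 genes, beside 6.12% of all genes (2.71% higher, 3.42% lower). Igfbp3 was higher with the KO alone (0.80 ± 0.17, adjusted p = 0.0167) and Igfbp2 was lower (-0.86 ± 0.22, adjusted p = 0.0405). The adjusted p ran from 0.0126 to 0.0885 for Igfbp3 and from 0.0211 to 0.202 for Igfbp2 without single libraries. The call of Igfbp3 was lost without WT CDAHFD 1 or 2 or either KO chow library, and that of Igfbp2 also without WT CDAHFD 3 or KO CDAHFD 1. With only the libraries of these 2 groups in the fit, Igf1 was called as well, higher with the KO alone (0.43, adjusted p = 0.0347).

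Upstream of Igf1, 17 genes of growth hormone input were tested, of which 2, 3 and 4 were higher and 8, 5 and 6 lower with the KO alone, CDAHFD alone and both than in WT chow. Over all genes 39%, 51.1% and 52.4% were called, so that the counts with CDAHFD alone and both were near the background. The medians of the list were -0.57, -0.13 and -0.91 on the log2 scale, beside 0.002, -0.05 and -0.04 over all genes. Ghr, the growth hormone receptor, fell from 913 ± 95.4 CPM to 295 ± 53.1, 287 ± 14.9 and 256 ± 8.16 with the KO alone, CDAHFD alone and both, by 1.63, 1.67 and 1.83 on the log2 scale (adjusted p = 3.06e-06, 3.16e-07 and 1.55e-07). Hsd3b5, a male-specific liver gene under pulsatile growth hormone, fell from 587 ± 111 CPM to 2.67 ± 1.48, 5.48 ± 1.91 and 2.35 ± 2.004 (adjusted p = 1.71e-05, 3.72e-06 and 1.43e-06). Serpina12 fell in all 3 groups, from 123 ± 35.3 CPM to 10.98 ± 8.20, 34.2 ± 11.4 and 26.7 ± 13.1 (adjusted p = 0.000332, 0.00309 and 0.000981). Onecut1, a transcription factor of hepatocytes, was called lower with the KO alone (-3.04 ± 0.92, adjusted p = 0.0196) and with both (-2.39 ± 0.75, adjusted p = 0.0167), with -0.83 ± 0.69 in WT CDAHFD (adjusted p = 0.337).

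Of 14 tested genes for proteases that cleave binding proteins, and their inhibitors, 11, 11 and 12 were higher and 1, 2 and 2 lower with the KO alone, CDAHFD alone and both. Over all genes 22%, 26.1% and 26.9% were higher and 17%, 25% and 25.4% lower. The list had median log2 fold changes of 1.46, 1.71 and 2.12 beside 0.002, -0.05 and -0.04 over all genes. Mmp2, gelatinase A, rose from 3.42 ± 0.824 CPM in WT chow to 21.9 ± 5.87, 25.3 ± 1.92 and 38.3 ± 6.99 (adjusted p = 1.35e-06, 1.91e-07 and 5.3e-08). Plau, urokinase, rose from 1.76 ± 0.330 to 11.1 ± 0.225, 19.8 ± 3.08 and 22.9 ± 0.966 (adjusted p = 2.62e-07, 1.27e-08 and 6.95e-09). Htra3, a serine protease, rose from 1.62 ± 1.13 to 4.84 ± 2.04, 6.29 ± 0.304 and 7.24 ± 2.11 (adjusted p = 0.0103, 0.00098 and 0.00045). Mmp7, matrilysin, was at 0 to 0.1 CPM in WT chow and rose to 1.02 ± 1.17, 2.67 ± 1.48 and 7.82 ± 3.62 (adjusted p = 0.0079, 0.000247 and 2.18e-05). The rise of the myofibroblast markers given above accompanied that of these genes, and macrophage and cholangiocyte markers were also called higher, 10 of 10 and 8 or 9 of 10 in each group. With the KO alone 1 cholangiocyte marker was called lower. Macrophage markers summed to 126 to 262 CPM in WT chow and 639.5 to 1791 elsewhere, and cholangiocyte markers to 74.9 to 112 and 222 to 1001, with none at 0, and their part in these results was not tested.

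Of 34 tested genes of signalling below the receptor, 3, 4 and 4 were higher and 11, 11 and 14 lower, beside 39%, 51.1% and 52.4% of all genes called in either direction, and with medians of -0.24, -0.12 and -0.30 beside 0.002, -0.05 and -0.04. The share called in this list was thus near that of all genes. Sos1, which couples receptors to Ras, fell by 0.96, 0.90 and 1.20 on the log2 scale (adjusted p = 0.00285, 0.00109 and 0.000119). Mapk3, which encodes ERK1, rose by 0.70, 0.998 and 1.05 (adjusted p = 0.00018, 2.08e-06 and 1.21e-06). Grb10, an adaptor that dampens the receptor, was called only with both (1.18 ± 0.36, adjusted p = 0.0138), with 0.66 ± 0.40 in KO chow and 0.62 ± 0.36 in WT CDAHFD. Of 10 other genes of the family 4 were tested, of which 2, 1 and 1 were higher and 1 was lower in each group. Insr, the insulin receptor, fell from 189 ± 30.8 CPM to 100 ± 22.4, 110 ± 1.23 and 103 ± 20.4 (adjusted p = 0.00211, 0.00149 and 0.000646), while Igf2bp2, which encodes an RNA binding protein, rose by 1.28, 2.23 and 1.78 (adjusted p = 0.0011, 3.03e-06 and 2.03e-05).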

How the data were processed

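Liver RNA of 12 mice was selected for poly-A and sequenced by the authors as non-directional libraries, with read quality checked by FastQC 0.11.5 and alignment to GRCm38 by STAR 2.7.3a. The deposited values are raw read counts per Ensembl gene, without normalization; the counting program and annotation release are not given in the sources used here. Symbols, positions and exon lengths came from GENCODE M21. Groups were taken from the labels, each library was taken as 1 mouse, and the p-values measure the spread between these samples.

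Counts were analysed with edgeR 4.0.16 in R 4.3.3 (filterByExpr, TMM, one mean per group over all 12 libraries, quasi-likelihood test, Benjamini-Hochberg adjustment over 17358 genes); the SE was the log2 fold change divided by the root of F. The fit was tested on simulated data. DESeq2 1.42.0, other scaling, no filter, only the groups compared, the clock score as a covariate and leaving out each library were alternatives. A fit without the 4 libraries of low clock score was added after seeing the data. It leaves KO chow 1 alone in its group and WT chow 1 and 2 in theirs. That fit therefore cannot tell the clock from the smaller groups. Fits without KO chow 1 or KO chow 2 also leave 1 KO chow library. Ratios were tested with exact permutation tests in Python 3.11.15 with scipy 1.17.1. Promoters are RefSeq windows on GRCm38.p6.

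The members and gene lists were chosen with earlier results of these data known. Named besides the 10 members were Ppara, up to 4 genes of each list with the largest called change from WT chow and a mean of at least 50 counts, the 3 genes nearest in profile to Igf1, Igfals, Igfbp1 and Igfbp2, and genes overlapping exons of a member with at least 10 percent of its counts. One gene that this rule names is not reported here. No libraries held identical values.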

Additional observations from a re-analysis of the deposited data

Results flagged for a closer look

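Igfbp1 in WT chow was flagged because 1 library stood apart: replicate 1 had 386 CPM beside 35.55 to 84.2 in the others, a gap of 0.861 of the group's range, above the critical value of Dixon's test for 4 samples. Of 10 genes tested in this 1 group it was the only one. Chance flags about 1 in 20 genes tested, so 1 flag among 10 genes is not unusual. The clock score of that library was 3.27, the highest of the 12, and that of WT chow 2, with 72.2 CPM of Igfbp1, was 2.94. The part of the clock in the level of WT chow 1 was not tested.

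Igfals, Igfbp3, Igfbp4 and Igfbp7 were flagged because the effect of the KO differed between the diets, by the interaction test. The effect on CDAHFD minus that on chow was 1.42 for Igfals, 0.78 for Igfbp4, -1.17 for Igfbp3 and -0.98 for Igfbp7 on the log2 scale. Markers of hepatocytes had called interactions too, 5 of 7 higher, as had those of myofibroblasts, 6 of 10 lower, and their part in the interactions of the 4 genes was not tested.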

How the results depend on the processing

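The calls against WT chow of Igf1, Igfals and Igfbp7 held under all alternatives run. For KO CDAHFD against WT CDAHFD 1 gene, Igfbp2, was called when every gene with a count was tested. For KO CDAHFD against KO chow the called genes were 0 with DESeq2 size factors, 4 with DESeq2, 1 with only the groups compared, 0 with the replicate block, 4 with the clock score as a covariate, 0 without the 4 libraries of low clock score and 0 to 2 without single libraries. For KO chow against WT CDAHFD they were 3 with only the groups compared, 1 with the replicate block and 0 to 2 without single libraries. Replicate numbers did not pair the samples (15 same-number pairs, r from -0.242 to 0.266, 4 of 12 libraries closest to their own number). With the replicate block Igfbp1 was called in KO chow (1.35, adjusted p = 0.0486) and WT CDAHFD (1.59, 0.0105) against WT chow, and Igfbp4 was not called in KO chow (-0.47, 0.0597) or for the interaction (0.58, 0.107). Of the values of single genes under alternatives, 1266 kept their direction and side of the threshold, 59 lost the call, 29 gained it and 36 changed sign, the last only in genes not called. With library size alone these were Igfbp2 (0.16) and Igfbp5 (0.008) in KO chow, Igfbp5 (0.35) in WT CDAHFD, Igfbp2 (0.54, then called) and Igfbp6 (0.32) in KO CDAHFD, all against WT chow, Igfbp4 (0.041) in KO CDAHFD against KO chow and Igfbp1 (-0.083) in KO chow against WT CDAHFD. With the replicate block they were Igfbp1 (-0.25) and Igfbp5 (0.14) in KO chow against WT CDAHFD, and with the clock score Igfbp4 (-0.006) in KO CDAHFD against WT CDAHFD. Without the 4 libraries they were Igfals (0.022) in KO CDAHFD against KO chow, and Igfbp6 (0.70) and Igfbp7 (0.042) in KO chow against WT CDAHFD. Without single libraries, against WT chow, Igfbp6 ran from -1.41 to 1.23 in KO chow, Igfbp5 from -0.85 to 0.12 in WT CDAHFD, and Igfbp2 from -0.25 to 0.077 and Igfbp6 from -0.56 to 0.035 in KO CDAHFD. Igfbp5 ran from -0.84 to 0.13 in KO CDAHFD against WT CDAHFD; against KO chow Igfbp6 ran from -1.54 to 1.14, Igfbp2 from -0.019 to 0.29 and Igfbp5 from -0.64 to 0.028. In KO chow against WT CDAHFD Igfbp1 ran from -0.38 to 0.53, Igfbp5 from -0.53 to 0.44, Igfbp6 from -1.96 to 0.70 and Igfbp7 from -0.31 to 0.041, and for the interaction Igfbp5 ran from -0.44 to 0.53 and Igfbp6 from -2.07 to 0.59. The causes were not tested. Igfbp5, Igfbp6 and Igf1r had few counts, which limits their precision.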

Other observations

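The genes nearest in profile to a member were found by the root mean square difference of centred log2 CPM over the 12 libraries, among 12905 genes, as a description with no test. For Igf1, whose own SD over the libraries was 0.609 on the log2 scale, they were mt-Nd1, a mitochondrial gene of complex I (0.081), Scp2, a carrier of sterols (0.118), and Acadsb, an enzyme of branched-chain acyl-CoA breakdown (0.119). For Igfals they were Alas2 (0.162), Mtfp1 (0.167) and Tfr2 (0.18), and for Igfbp2 they were Steap3 (0.18), Il4ra (0.203) and Mras (0.226).

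For Igfbp1 the nearest were Adcy1, an adenylyl cyclase (0.606), Plscr1 (0.689) and Fyb2 (0.702), beside an own SD of 1.338, while Igfals and Igfbp2 had own SDs of 0.771 and 0.397. Adcy1 is also a neighbour of Igfbp1 on chromosome 11, ending 19275 bases before its start on the same strand, with 1 gene, Gm11985, between them. Adcy1 had 4.58, 1.13, 0.200 and 0.688 CPM in WT chow 1 to 4, where Igfbp1 had 386, 72.2, 35.55 and 84.2. Plscr1 had 56.5, 21.0, 11.3 and 13.6 CPM and Fyb2 18.3, 6.39, 5.24 and 7.11 there, so that among the WT chow libraries all of these genes were highest in WT chow 1. They were chosen for their likeness to Igfbp1 over the same libraries, so this shared peak follows in part from the choice. The low counts of Adcy1, 6 to 155 per library, limit its precision.

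Igfbp1 and Igfbp3 lie end to end with 3539 bases between them, and Igfbp2 and Igfbp5 with 5457. In KO chow Igfbp3 was called higher (1.34) and Igfbp1 was not (1.61), although it was without WT chow 1 (2.80, adjusted p = 0.00245), and in WT CDAHFD Igfbp2 was called higher and Igfbp5 was not; the differences between neighbours were not tested.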
